A study of Canis lupus familiaris with 15 samples.

Results

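Primary osteosarcomas of the forelimb, in the humerus (n = 6) or the radius (n = 3), were compared with those of the hindlimb, in the femur (n = 4) or the tibia (n = 2). The 9 forelimb and 6 hindlimb tumors are all 15 tumors of the series, and each was placed by its bone in the study's table of patients, matched through the dog number in the sample title. Each tumor came from a different pet dog, was taken at amputation before any chemotherapy, and was measured once on an Affymetrix Canine 2.0 array, so the dogs are the replicates. The study had chosen the dogs for a disease free interval (DFI) under 100 days or over 300 days, and limma compared the limbs with this cohort as a term unless stated. The forelimb tumors were 4 of the DFI < 100 and 5 of the DFI > 300 cohort, and the hindlimb tumors 4 and 2. The forelimb dogs were 6 castrated males and 3 spayed females aged 9.41 ± 2.80 years on average (SD, n = 9), and the hindlimb dogs 2 castrated males and 4 spayed females aged 8.48 ± 2.35 years (SD, n = 6). Of the forelimb tumors 7 were osteoblastic, 1 was a giant cell tumor and 1 was poorly differentiated, while 4 hindlimb tumors were osteoblastic and 2 were giant cell tumors. Greyhounds were 2 of the forelimb and 2 of the hindlimb dogs, and dogs of mixed breed 2 and 3. The other forelimb dogs were 2 Golden Retrievers, 1 Labrador Retriever, 1 Doberman and 1 Rottweiler, and the other hindlimb dog was a Rottweiler. The tumor was in a left limb in 8 of the 9 forelimb and 4 of the 6 hindlimb dogs, and both hindlimb tumors of the DFI > 300 cohort were in right limbs.

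In vertebrate embryos the forelimb and the hindlimb are built from the same parts under different transcription factors. PITX1 and TBX4 act in the hindlimb bud, TBX5 acts in the forelimb bud, and HOX genes set the position along the body and along the limb. These roles are known mainly from mouse and chick, and in the mouse some HOXC genes, HOXC10 among them, are used in the hindlimb and not in the forelimb. Bone cells of adult animals can keep part of this positional program, which makes it a natural check of the limb in a tumor of bone.

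Values are log2 of the deposited PLIER signal, 1 per probeset and array. Differences are forelimb minus hindlimb, so a negative one is higher in hindlimb tumors, and they are given with the standard error (SE) and the Benjamini-Hochberg adjusted p of limma over 42860 probesets. The array also carries 64 probesets for reporter sequences, which have no target in a dog. Their 95th percentile, taken on each array and then averaged, was a log2 signal of 6.79. This is called the reporter level, and values under it carry little or no order. The median linear signal was 51.3 ± 1.96 in forelimb and 51.3 ± 2.76 in hindlimb arrays, and the excess of 3 prime over 5 prime control signal, a sign of RNA quality, was 1.11 ± 0.30 in forelimb and 1.11 ± 0.42 in hindlimb arrays on the log2 scale (SD). Bone matrix genes defined the tissue in both limbs, with 12 of 18 measured osteoblast and bone matrix genes above the reporter level. In whole tumors, fewer cells of a type and less RNA per cell cannot be told apart.

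No probeset separated the limbs after correction. Of 42860 probesets, 0 (0% of those tested) had an adjusted p under 0.05, the smallest adjusted p was 0.964, and the methods' t-test (unpaired, 2-tailed, with the same adjustment) also called 0. At an unadjusted p under 0.05 limma counted 1875 probesets, or 4.37%, of which 1058 were higher in forelimb and 817 higher in hindlimb tumors, and the methods' t-test counted 1767. Of these 1875, 703 lay above the reporter level, 382 higher in forelimb and 321 higher in hindlimb. The study's fold criteria, a fold above 3 with an unadjusted p under 0.05, were met with limma's p by 214 probesets, 143 higher in forelimb and 71 higher in hindlimb, and with the p of the methods' t-test, which has no cohort term, by 129. With limma's p they were met by 27 above the reporter level, 9 and 18. Counted by gene, with each gene at its brightest probeset, 363 of 15115 (2.4%) were higher in forelimb and 318 (2.1%) higher in hindlimb tumors at an unadjusted p under 0.05. These shares are the background for the 0 to 3 genes that any list below had at that threshold in either direction. The adjusted p was 0.964 for every gene named below, at its brightest probeset, unless another is given. Each difference below therefore describes these 15 tumors, and none passed the test.

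**Figure D1:**
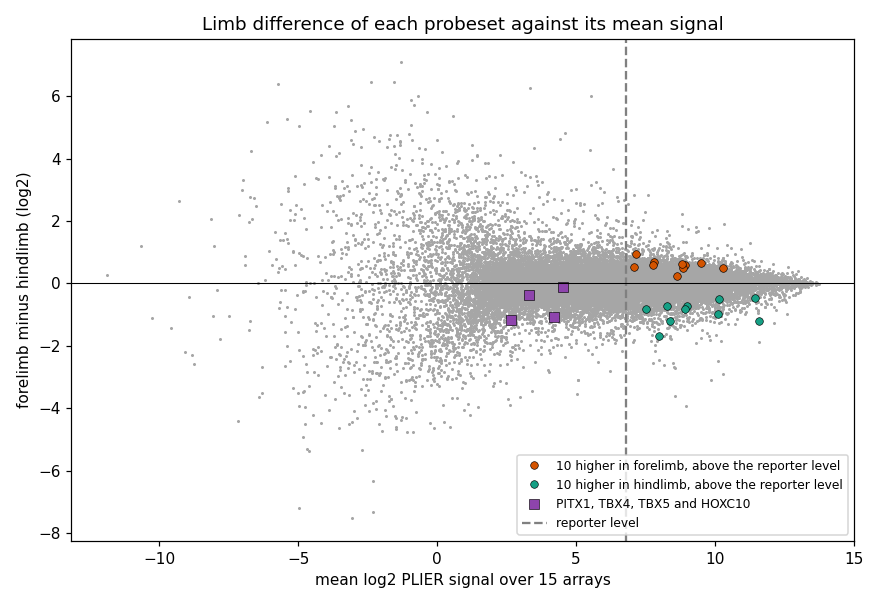
Each grey point is 1 of 42860 probesets, with its mean log2 PLIER signal over 15 arrays on the x axis and its forelimb minus hindlimb difference (log2) on the y axis, and the dashed line is the reporter level of 6.79. Differences spread most below the reporter level, where PITX1, TBX4, TBX5 and HOXC10 lie, and the 20 leading genes lie above it, at their brightest probesets.

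The factors that name the limb in the embryo were at low signal in the tumors of both limbs. Of the 6 listed, PITX1, TBX4, TBX5 and HOXC10 were measured, and the mean of each was below the reporter level. PITX1, the factor at the top of the hindlimb program, was above the reporter level in 0 of 9 forelimb and 2 of 6 hindlimb tumors. It ran from -7.69 through a median of 5.25 to 6.42 in forelimb tumors, and from 2.45 through 3.60 to 10.17 in hindlimb tumors. The highest hindlimb values were 10.17 in dog 223986 and 8.51 in dog 173175, both with a left distal femur tumor in the DFI < 100 cohort. Both tumors were osteoblastic, and these dogs were the 2 castrated males of the hindlimb group. The other hindlimb tumors had 3.75 (distal femur), 2.73 (proximal femur), 3.45 and 2.45 (tibia), all within the range of the forelimb tumors. After -7.69 the next forelimb value was 3.15, so 2.73 and 2.45 lay below every other forelimb tumor. The difference of -1.06 (SE 1.98) had an adjusted p of 0.976, and it was -0.04 without the forelimb tumor of dog 193231, which had the value of -7.69. The medians, 5.25 in forelimb and 3.60 in hindlimb tumors, ran the other way. PITX1 signal clear of the reporter level was therefore seen in 2 of 6 hindlimb tumors, not across the hindlimb. Whether it goes with bone, sex, subtype or cohort was not tested.

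TBX4, which acts after PITX1 in the hindlimb bud, ran from 4.06 through 4.33 to 5.16 in forelimb tumors and from 3.80 through 4.45 to 6.27 in hindlimb tumors. Its highest value, 6.27, was in dog 173175, which also had the second highest PITX1, and it was still below the reporter level. The difference was -0.13 (SE 0.321, adjusted p 0.987). TBX5, the forelimb factor, ran from 1.40 through 3.36 to 3.92 in forelimb tumors and from 3.02 through 3.49 to 3.91 in hindlimb tumors. Its difference was -0.39 (SE 0.327), the higher mean being in hindlimb tumors, and -0.09 without the forelimb tumor of dog 208911. No tumor of either limb reached the reporter level for TBX5, so these arrays did not detect the factor that marks the forelimb bud.

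HOXC10, a hindlimb HOX gene in the mouse, ran from 0.66 through 2.25 to 3.54 in forelimb tumors and from 2.76 through 3.23 to 4.37 in hindlimb tumors. Of the 9 forelimb tumors 7 were below every hindlimb tumor, and 2 hindlimb tumors were above every forelimb tumor. The difference was -1.16 (SE 0.407), and it was -1.17 within the DFI < 100 and -1.15 within the DFI > 300 cohort. With an offset of 16 added to the signals before log2, which shrinks differences at low signal, it was -0.34. In a 2-sided exact permutation test with limb labels exchanged within each cohort (1470 arrangements, smallest possible p 0.00068) the p was 0.0184 for HOXC10. It was 0.631 for PITX1, 0.769 for TBX4 and 0.334 for TBX5 in the same exact test, which was run on these 4 genes alone. These exact p-values were not adjusted for the 4 tests, and the gene lists were chosen with earlier results of these data known. All HOXC10 values lay far below the reporter level, where a probeset need not follow its gene.

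Among the HOX genes, 21 of 39 listed were measured, 14 higher in forelimb and 7 higher in hindlimb tumors, with a median difference of 0.14 beside 0.00 over all genes, and 0 and 1 (HOXC10) at an unadjusted p under 0.05. Over the 5 HOX genes with a mean above the reporter level the median was -0.08. Without the 3 giant cell tumors the list stood at 9 and 12, with a median of -0.09, and without the 4 Greyhounds at 7 and 14, with -0.07. HOXD10 ran from 4.37 through 5.82 to 7.50 in forelimb and from 4.72 through 7.34 to 9.47 in hindlimb tumors, with 3 hindlimb tumors above every forelimb tumor. It was above the reporter level in 2 of 9 forelimb and 4 of 6 hindlimb tumors. Its difference was -1.40 (SE 0.672), and a second probeset gave -1.78 (SE 0.800). HOXA4, whose position in the cluster is near the head end, ran from 6.66 through 7.65 to 8.32 in forelimb and from 5.66 through 6.82 to 7.78 in hindlimb tumors, a difference of 0.70 (SE 0.353), or 0.38 without dog 180119. HOXA5, HOXA9, HOXB7 and HOXC12, also above the reporter level, differed by -0.08 (adjusted p 0.993), -0.15, 0.32 (adjusted p 0.967) and -0.09 (adjusted p 0.987), and the limbs overlapped in each.

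The wider limb patterning list, which includes signals and factors of the limb bud, had 49 of 55 genes measured, 22 higher in forelimb and 27 higher in hindlimb tumors, with a median of -0.06. Over its 11 genes with a mean above the reporter level the median was 0.19. HAND2, which sets up the posterior side of the limb bud, had the smallest p of the list. It ran from 5.60 through 7.82 to 9.87 in forelimb tumors and from 4.52 through 6.86 to 7.41 in hindlimb tumors, and 6 of 9 forelimb tumors were above every hindlimb tumor. It was above the reporter level in 7 forelimb and 3 hindlimb tumors, and the difference was 1.58 (SE 0.621), or 2.99-fold. WNT7A, a dorsal signal of the limb bud, FGF8, the signal of its outer ridge, and TP63, a factor of its covering epithelium, were below the reporter level in every tumor. The T-box list had 15 of 16 genes measured, 8 higher in forelimb and 7 higher in hindlimb, with a median of 0.06 and 0 at an unadjusted p under 0.05 in either direction. TBX2, TBX3, TBX15 and TBX18, which act in both limb buds, differed by -0.51, 0.22, 0.25 and -0.12 (adjusted p 0.969 for TBX18), with means below the reporter level. TBX2 differed by -0.03 without dog 173175, and TBX15 by 0.04 without dog 208756. The distal femur tumor of dog 173175 had the highest value of all 15 for TBX2 (7.84), TBX4 (6.27), HOXC10 (4.37) and HOXD10 (9.47).

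**Figure D2:**
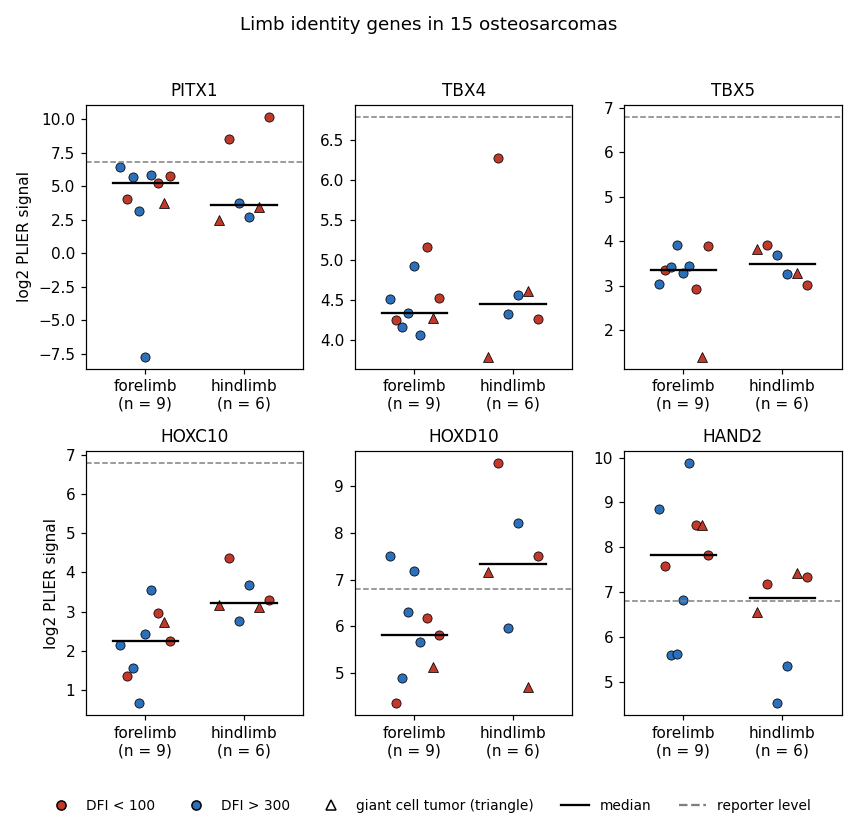
Log2 PLIER signal of 6 limb genes in each tumor, forelimb left (n = 9) and hindlimb right (n = 6), with colors for the cohort, triangles for giant cell tumors, a bar for the median and a dashed line for the reporter level. PITX1 exceeds the reporter level in 2 hindlimb tumors, TBX5 and HOXC10 stay below it in all 15, and the limbs overlap in every panel.

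The segment of the limb gave no called probeset either. The upper segment (humerus or femur, n = 10) was set against the lower segment (radius or tibia, n = 5) with cohort and limb in the fit, and 0 of 42860 probesets (0%) had an adjusted p under 0.05, with a smallest adjusted p of 0.9999. At an unadjusted p under 0.05 there were 1223, 716 higher in the upper and 507 higher in the lower segment. PITX1 was 2.87 (SE 1.96) higher in the upper segment. The lower segment includes the radius tumor of dog 193231, which had the PITX1 value of -7.69. By the same measure, upper minus lower, HOXC10 was 0.23 (SE 0.432), TBX4 0.17 (SE 0.341) and TBX5 -0.02 (SE 0.351). The adjusted p was 0.9999 for each of these and for PITX1.

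The leading genes were the 10 in each direction with the smallest unadjusted p above the reporter level, so their values describe the tumors and support nothing by themselves. Higher in hindlimb tumors were ALDH3B1, an aldehyde dehydrogenase, PGLS of the pentose phosphate pathway, SERPINE2, a secreted inhibitor of thrombin and plasminogen activators, UHMK1, a kinase, CSRP1, a LIM domain protein, LAMTOR1, an anchor of signaling complexes on the lysosome, CTSZ, a lysosomal protease, COLGALT1, which adds sugar to collagen, ZEB2, a transcriptional repressor, and FLNA, which links actin filaments. ALDH3B1 ran from 6.74 through 7.36 to 8.25 in forelimb and from 7.92 through 8.98 to 10.10 in hindlimb tumors, and 8 of 9 forelimb tumors were below every hindlimb tumor. The difference was -1.69 (SE 0.282), 3.22-fold higher in hindlimb, at -1.30 in the DFI < 100 and -2.23 in the DFI > 300 cohort. A dimmer probeset of ALDH3B1, below the reporter level, differed by 0.06.

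SERPINE2 ran from 10.23 through 11.13 to 12.15 in forelimb and from 11.80 through 12.15 to 13.16 in hindlimb tumors, with 8 of 9 forelimb tumors below every hindlimb tumor. Its 3 probesets gave -1.20 (SE 0.268), -1.83 and -1.80. CSRP1 differed by -1.21, CTSZ by -0.99, PGLS by -0.81, COLGALT1 by -0.81, ZEB2 by -0.72 and UHMK1 by -0.71. COLGALT1 ran from 6.52 through 7.14 to 7.99 in forelimb and from 7.75 through 7.94 to 8.21 in hindlimb tumors, again with 8 of 9 forelimb tumors below every hindlimb tumor. LAMTOR1 and FLNA were chosen on a dimmer probeset, at -0.81 and -0.91, and their brightest probesets gave -0.50 and -0.45. A second UHMK1 probeset above the reporter level gave 0.09.

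Higher in forelimb tumors were RNF2, a ubiquitin ligase of the Polycomb repressive complex, UBE2B, a ubiquitin-conjugating enzyme of DNA damage tolerance, RAD17 of the DNA damage checkpoint, CDC26, a subunit of the anaphase promoting complex, CEP192, a centrosome scaffold, LSM3 of the spliceosome, SRP9 of the signal recognition particle, RTN4IP1, a mitochondrial oxidoreductase, GIN1 and RPRD1A, which binds RNA polymerase II. RNF2 ran from 6.86 through 7.27 to 8.33 in forelimb and from 6.40 through 6.63 to 6.83 in hindlimb tumors. It was the 1 gene of 6448 above the reporter level (0.0155%) whose limbs did not overlap, with 6.86 in the lowest forelimb and 6.83 in the highest hindlimb tumor. The RNF2 difference was 0.93 (SE 0.251), or 1.91-fold, at 1.24 in the DFI < 100 and 0.51 in the DFI > 300 cohort, and its hindlimb values lay at the reporter level.

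SRP9 ran from 8.67 through 8.84 to 9.67 in forelimb and from 8.16 through 8.44 to 8.74 in hindlimb tumors, with 8 of 9 forelimb tumors above every hindlimb tumor and a difference of 0.64 (SE 0.173). CEP192 also had 8 of 9 forelimb tumors above every hindlimb tumor, with a difference of 0.60 (SE 0.178). The other differences were 0.68 for RTN4IP1, 0.64 for UBE2B, 0.59 for RAD17, 0.52 for GIN1, and 0.50 for both LSM3 and CDC26. A dimmer SRP9 probeset above the reporter level gave 0.25 (SE 0.223). The other UBE2B probesets above that level gave 0.63 and 0.34. RPRD1A was chosen on a dimmer probeset at 1.08, and its brightest probeset gave 0.25 (adjusted p 0.970), at 0.90 in the DFI < 100 and -0.66 in the DFI > 300 cohort.

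**Figure D3:**
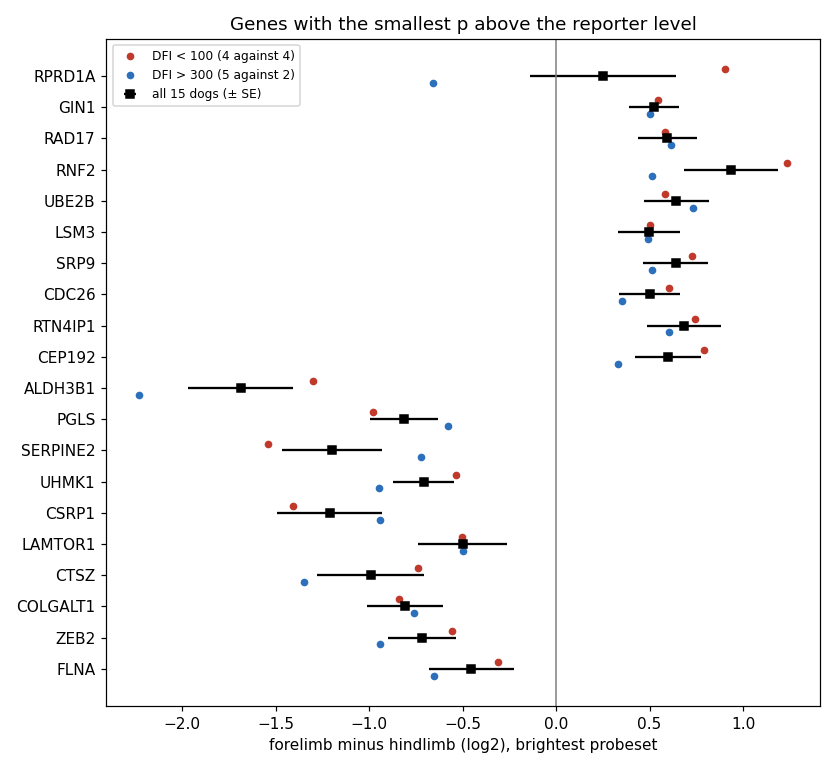
Forelimb minus hindlimb difference (log2) of the 20 leading genes at their brightest probesets, with black squares and SE bars for all 15 dogs and dots for each cohort alone. Of the genes drawn, RPRD1A has cohort values on both sides of 0, at 0.90 and -0.66.

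Genes of bone-resorbing and phagocytic cells had higher values in hindlimb tumors. Osteoclasts arise from the monocyte lineage under CSF1 and RANK ligand and dissolve bone mineral and matrix, and macrophages share their origin. Of 15 osteoclast and RANK genes 11 were measured, 0 higher in forelimb and 11 higher in hindlimb tumors, with a median difference of -0.92, while 7661 of all 15115 genes were higher in forelimb and 7454 in hindlimb, with a median of 0.00. None of the 11 passed an unadjusted p of 0.05 in either direction. The median was -0.98 over the 7 with a mean above the reporter level, and -0.59 over all 11 with the offset of 16. The mean of the list ran from 4.80 to 8.78 in forelimb tumors (7.08 ± 1.41, SD, n = 9) and from 7.67 to 8.75 in hindlimb tumors (8.21 ± 0.39, SD, n = 6), so the limbs overlapped and the forelimb tumors were the more varied. The lowest list means were all in forelimb tumors, 4.80 in dog 208513, 5.63 in dog 193231 and 5.79 in dog 208756, all osteoblastic, and the highest was in the forelimb giant cell tumor of dog 208911.

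ACP5, the tartrate-resistant phosphatase of osteoclasts, ran from 1.01 through 11.07 to 13.05 in forelimb and from 11.19 through 12.15 to 12.77 in hindlimb tumors. Of 9 forelimb tumors 6 were below every hindlimb tumor, and 2 of those 6 were below the reporter level. The difference was -2.89 (SE 1.64). ATP6V0D2, a subunit of the proton pump that acidifies the resorption pit, ran from 1.09 through 8.15 to 11.22 in forelimb and from 8.38 through 10.52 to 11.34 in hindlimb tumors, a difference of -2.66 (SE 1.48). CTSK, the protease that digests bone collagen, differed by -0.98 (SE 0.565), and MMP9, a gelatinase of osteoclasts, by -1.88 (SE 1.06).

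Of 20 macrophage genes 19 were measured, 1 higher in forelimb and 18 higher in hindlimb tumors, with a median of -0.69 and 0 and 2 of them at an unadjusted p under 0.05. The mean of the list ran from 6.45 to 8.41 in forelimb (7.50 ± 0.80, SD) and from 7.52 to 10.09 in hindlimb tumors (8.34 ± 0.95, SD). CSF1R, the receptor that macrophages and osteoclast precursors need, ran from 5.36 through 7.32 to 8.64 in forelimb and from 7.79 through 8.18 to 9.73 in hindlimb tumors. Its difference was -1.44 (SE 0.560), with 6 of 9 forelimb tumors below every hindlimb tumor. MRC1, a mannose receptor of macrophages, differed by -1.42 (SE 0.508), CD14, a receptor for bacterial lipopolysaccharide, by -1.13 (SE 0.548) and CD68, a lysosomal protein, by -1.90 (SE 0.988). Of 19 MHC class II genes, which present antigen on such cells, 10 were measured, 2 higher in forelimb and 8 higher in hindlimb, with a median of -0.55 and 0 at an unadjusted p under 0.05 in either direction. CD74, the chaperone of class II, differed by -0.83 (SE 0.516) and HLA-DRB1 by -0.62 (SE 0.475).

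These list values varied with the cohort and with single tumors. For the osteoclast and RANK list the median was -0.69 within the DFI < 100 cohort (2 higher in forelimb, 9 higher in hindlimb) and -0.93 within the DFI > 300 cohort (1 and 10), without the giant cell tumors it was -1.06 (0 and 11), and without the 4 Greyhounds -0.55 (0 and 11). For the macrophage list the median was 0.01 within the DFI < 100 cohort (11 and 8) and -2.29 within the DFI > 300 cohort (0 and 19), where the hindlimb is 2 dogs. The macrophage median was -0.28 (6 and 13) without dog 180119, a hindlimb tumor of the DFI > 300 cohort with the highest list mean of 10.09. Without the giant cell tumors it was -1.02 (0 and 19), and without the Greyhounds -1.20 (1 and 18). For MHC class II the medians were -0.04 within the DFI < 100 and -1.23 within the DFI > 300 cohort, -0.28 without dog 180119 and -0.87 without the Greyhounds. The limb by cohort difference of the lists was not tested.

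**Figure D4:**
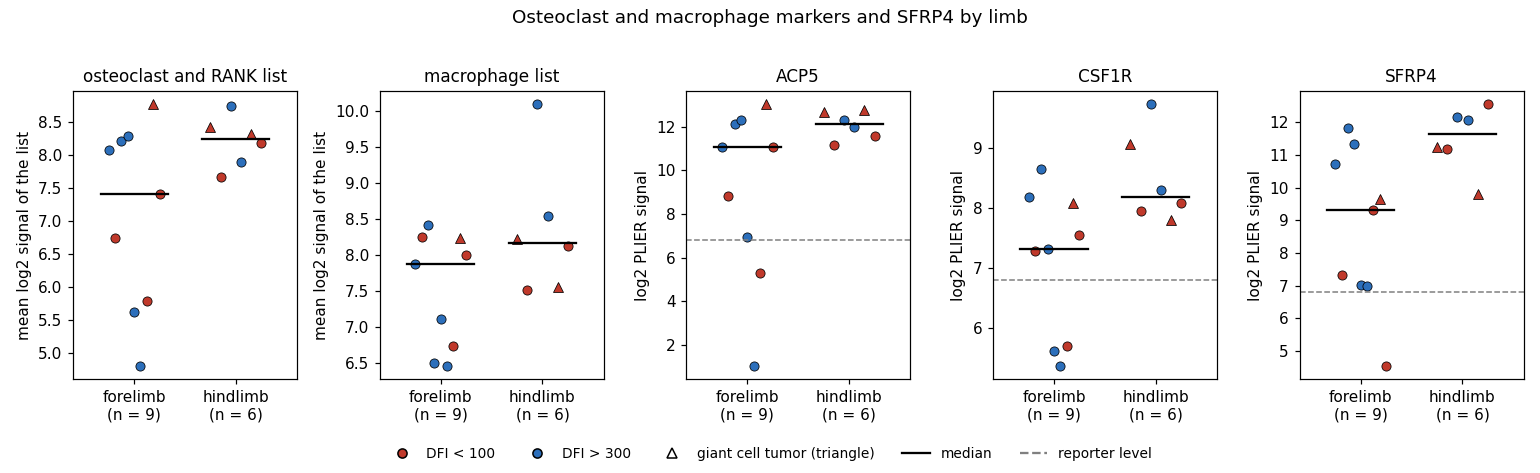
Mean log2 signal of the osteoclast and RANK list and the macrophage list, and log2 PLIER signal of ACP5, CSF1R and SFRP4, in each tumor, forelimb left (n = 9) and hindlimb right (n = 6), with triangles for giant cell tumors, a bar for the median and a dashed line for the reporter level. The lowest osteoclast list means, 4.80, 5.63 and 5.79, are forelimb tumors, and the macrophage list has 1 hindlimb tumor at 10.09.

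Matrix genes differed in both directions. Of 21 matrix metalloproteinases and inhibitors 17 were measured, 2 higher in forelimb and 15 higher in hindlimb tumors, with a median of -0.54 and 0 and 1 at an unadjusted p under 0.05. The 1 was TIMP2, an inhibitor of metalloproteinases, at -0.70 (SE 0.273). Within cohorts the median of this list was -1.12 (DFI < 100) and 0.24 (DFI > 300), and it was -0.33 without the Greyhounds. MMP9 is a member of this list and of the osteoclast list. TIMP1 differed by -0.52, and MMP24 by -1.46 below the reporter level, or -0.28 without dog 212759. Of 35 extracellular matrix genes 31 were measured, 12 higher in forelimb and 19 higher in hindlimb, with a median of -0.26 and 1 and 2 at an unadjusted p under 0.05. Within cohorts this median too was on both sides of 0, at -0.51 (DFI < 100) and 0.28 (DFI > 300), and it was -0.01 without the Greyhounds and -0.07 without dog 212759.

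BGN, a small proteoglycan of bone, ran from 10.10 through 11.08 to 12.86 in forelimb and from 10.95 through 12.16 to 12.80 in hindlimb tumors, a difference of -0.96 (SE 0.376). COL6A3 and COL6A1, chains of a microfibrillar collagen, differed by -1.10 (SE 0.435) and -0.96 (SE 0.542). FBN2, a microfibril protein made mostly in growing tissue, went the other way, at 2.50 through 8.93 to 11.31 in forelimb and 3.53 through 5.42 to 10.14 in hindlimb tumors. It was above the reporter level in 8 of 9 forelimb and 2 of 6 hindlimb tumors, and the difference was 2.84 (SE 1.28).

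Osteoblast and cartilage genes showed no common direction. Of 18 measured osteoblast and bone matrix genes (20 listed) 10 were higher in forelimb and 8 in hindlimb, with a median of 0.18, or -0.04 over those above the reporter level, and 0 at an unadjusted p under 0.05 in either direction. The median of all 18 was -0.10 within the DFI < 100 and 0.39 within the DFI > 300 cohort, and -0.07 without dog 180119. IBSP, bone sialoprotein, differed by 1.31 (SE 0.820), SPP1, osteopontin, by -0.74 (SE 0.531), PTH1R, the parathyroid hormone receptor, by -0.53 (SE 0.369) and BGLAP, osteocalcin, by -1.93 (SE 1.15) at a mean below the reporter level. Single tumors moved each of these, IBSP to 0.53 without dog 180223, SPP1 to -0.39 without dog 208756, PTH1R to -0.29 without dog 204714 and BGLAP to -0.97 without dog 173175. Of 16 measured cartilage genes (20 listed) 11 were higher in forelimb and 5 in hindlimb, with a median of 0.15, or -0.43 over those above the reporter level, and 0 at an unadjusted p under 0.05 in either direction. SOX5 and SOX6, partners of the master factor of cartilage, differed by 1.27 and 0.48 below the reporter level. CNMD, a protein of cartilage matrix, was above that level in 2 forelimb and 1 hindlimb tumors, and its difference of 3.16 was 0.32 without the hindlimb tumor of dog 180119. HAPLN1, which ties cartilage proteoglycan together, differed by 1.82 (SE 1.57), and was above the reporter level in 5 forelimb and 2 hindlimb tumors. It differed by 0.07 in the DFI < 100 and 4.27 in the DFI > 300 cohort, and by 0.63 without dog 180119.

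The signaling genes described were chosen for the smallest p in their lists, so they stand further apart than the list medians. Of 39 measured WNT genes (42 listed) 17 were higher in forelimb and 22 in hindlimb, with a median of -0.01 and 3 and 1 at an unadjusted p under 0.05. SFRP4, a secreted WNT antagonist that takes part in bone remodeling, ran from 4.53 through 9.30 to 11.83 in forelimb and from 9.82 through 11.65 to 12.56 in hindlimb tumors. Of 9 forelimb tumors 6 were below every hindlimb tumor, and the difference was -3.09 (SE 0.959), 8.53-fold higher in hindlimb. Its other 2 probesets gave -3.92 and -3.60, and its cohort values were -3.49 (DFI < 100) and -2.53 (DFI > 300). FZD10, a WNT receptor, differed by 1.28 (SE 0.540), at 2.22 in the DFI < 100 and -0.04 in the DFI > 300 cohort, and WNT6, a ligand, by 0.47 below the reporter level.

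Of 32 measured TGF-beta and BMP genes (37 listed) 16 were higher in each limb, with a median of -0.01 and 2 and 1 at an unadjusted p under 0.05. BMP7, a bone-inducing ligand, ran from 2.83 through 6.86 to 9.76 in forelimb and from 2.45 through 3.17 to 6.35 in hindlimb tumors, and 6 of 9 forelimb tumors were above every hindlimb tumor. It was above the reporter level in 5 of 9 forelimb and 0 of 6 hindlimb tumors, its mean was below that level, and the difference was 3.14 (SE 1.03), with 3.02 and 1.69 at the dimmer probesets. BMP5, a related ligand, ran from 4.09 through 6.35 to 9.45 in forelimb and from 3.97 through 4.15 to 6.50 in hindlimb tumors. It was above the reporter level in 3 of 9 forelimb and 0 of 6 hindlimb tumors. Its mean was below that level, and the difference was 2.07 (SE 0.775). TGFB1, the ligand stored in bone matrix, was 9.14 through 9.67 to 10.04 in forelimb and 9.30 through 10.48 to 10.99 in hindlimb tumors, with 4 hindlimb tumors above every forelimb tumor and a difference of -0.65 (SE 0.282). SMAD4, the shared mediator of both pathways, differed by 0.59 (SE 0.287), or 0.35 without dog 208756.

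Of 15 measured genes of the IGF axis (16 listed) 6 were higher in forelimb and 9 in hindlimb, with a median of -0.18 and 2 and 0 at an unadjusted p under 0.05. The median was 0.04 within each cohort alone, 0.15 without the giant cell tumors, and 0.18, 0.16 and 0.09 without dogs 190030, 204714 and 208756 in turn, so the list had no settled direction. IGF2BP1, a fetal RNA-binding protein, ran from 2.84 through 9.29 to 10.37 in forelimb and from 2.97 through 7.22 to 8.88 in hindlimb tumors. The difference was 2.30 (SE 0.956), and 5 of 9 forelimb tumors were above every hindlimb tumor. IGF2BP3, its relative, differed by 1.13 (SE 0.718) at a mean below the reporter level. IGFBP1 differed by 0.47 below that level, and its dimmer probesets gave -0.38, 0.13, 0.13 and -0.11. IGF2R, which clears IGF2, differed by 0.65 (SE 0.303).

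Cell cycle genes had higher values in forelimb tumors. Of 34 listed 30 were measured, 23 higher in forelimb and 7 higher in hindlimb, with a median of 0.34 and 2 and 0 at an unadjusted p under 0.05. CCNB2, a mitotic cyclin, ran from 8.71 through 9.78 to 10.62 in forelimb and from 8.84 through 9.23 to 9.60 in hindlimb tumors, with 7 of 9 forelimb tumors above every hindlimb tumor and a difference of 0.57 (SE 0.228). CDK1, its kinase partner, differed by 0.62 (SE 0.254), with 6 of 9 forelimb tumors above every hindlimb tumor. NUSAP1, a spindle protein, differed by 0.40 (SE 0.193) and CDC6, a licensing factor of DNA replication, by 0.57 (SE 0.301). The list mean was 8.83 ± 0.57 in forelimb and 8.59 ± 0.31 in hindlimb tumors (SD). The median was 0.46 within the DFI < 100 cohort, 0.14 within the DFI > 300 cohort, 0.18 without dog 204714 and 0.06 without the 4 Greyhounds (17 higher in forelimb, 13 higher in hindlimb).

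Of 41 oxidative phosphorylation genes 31 were measured, 20 higher in forelimb and 11 higher in hindlimb, with a median of 0.07 and 3 and 0 at an unadjusted p under 0.05. The 3 were NDUFA2, of the first complex of the respiratory chain, at 0.48 (SE 0.159), COX4I1, of cytochrome oxidase, at 0.39 (SE 0.169), and ATP5F1C, of ATP synthase, at 0.35 (SE 0.137). NDUFB5, of the first complex, differed by 0.47, and its dimmer probeset, also above the reporter level, by 0.08. The median was 0.25 within the DFI < 100 cohort (27 higher in forelimb, 4 higher in hindlimb) and -0.15 within the DFI > 300 cohort (9 and 22).

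Of 17 smooth muscle and pericyte genes, all measured, 6 were higher in forelimb and 11 in hindlimb, with a median of -0.15 and 0 and 3 at an unadjusted p under 0.05. The 3 were PDGFRB, a receptor of pericytes and fibroblasts, at -0.80 (SE 0.261), MYLK, the kinase of myosin light chain, at -1.28 (SE 0.515), and NOTCH3 at -0.60 (SE 0.260) and below the reporter level. PDGFRB was highest, at 9.25, in dog 180119, and differed by -0.53 without it. MYLK differed by -0.81 without dog 180223, and NOTCH3 by -0.39 without dog 173175. CSPG4, a pericyte proteoglycan, differed by -0.51 below the reporter level.

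The other lists of cell types and pathways had medians between -0.26 and 0.12. The endothelial list had 4 of 21 genes higher in forelimb and 17 higher in hindlimb (median -0.15). Tendon and synovium had 4 and 7 of 11 (-0.26), skeletal muscle 13 and 18 of 31 (-0.04), and adipocyte 9 and 6 of 15 (0.03). The mean difference of the adipocyte list was -0.58, and 1 of its 15 measured genes had a mean above the reporter level. The T and NK cell list had 11 and 12 of 23 (-0.01), B and plasma cells 6 and 7 of 13 (-0.02), neutrophil 5 and 7 of 12 (-0.21), erythroid 6 and 4 of 10 (0.12) and megakaryocyte and platelet 2 and 6 of 8 (-0.12). Nerve and Schwann cells had 10 and 5 of 15 (0.08) and epidermis 7 and 7 of 14 (0.03). Hedgehog signaling had 4 and 8 of 12 (-0.10), glycolysis and hypoxia 12 and 14 of 26 (-0.13) and interferon response 9 and 11 of 20 (-0.07). At an unadjusted p under 0.05, 0 members of these lists were higher in forelimb and 3 higher in hindlimb, 1 each in the neutrophil, adipocyte and glycolysis lists. Of 12 sex-linked genes listed, 0 were measured, so the sexes of the dogs could not be checked.

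**Figure D5:**
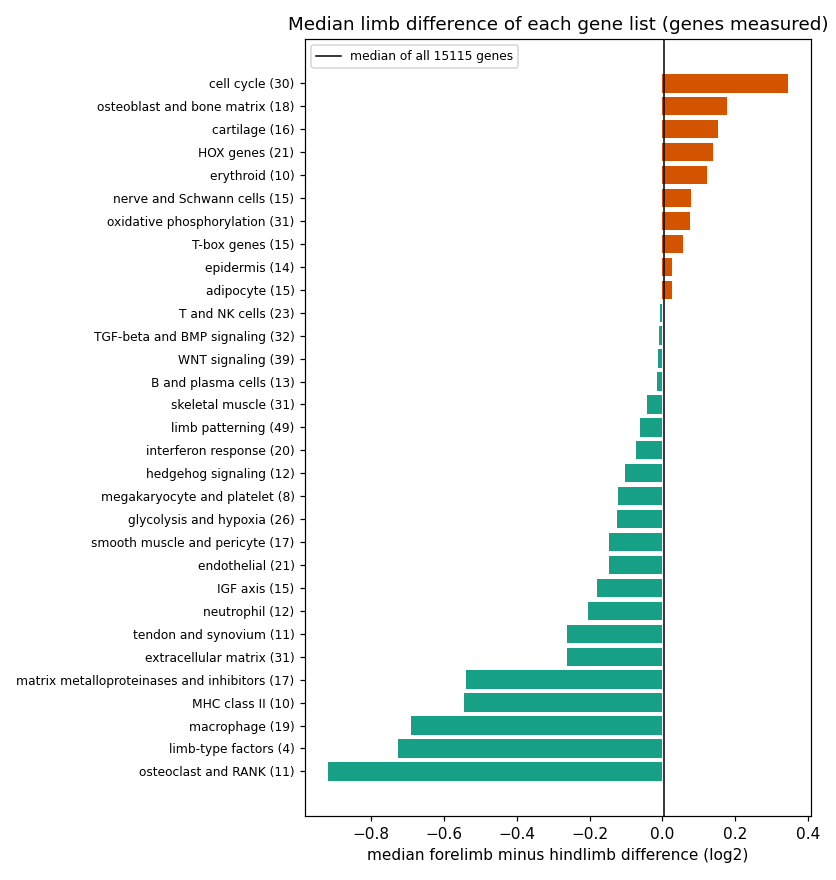
Median forelimb minus hindlimb difference (log2) of 31 gene lists, with the number of genes measured in brackets, and a vertical line at the median of all 15115 genes. The osteoclast and RANK list is lowest at -0.92 and the cell cycle list highest at 0.34.

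The limb difference itself was compared between the cohorts by an interaction term, since the forelimb had 4 dogs in the DFI < 100 and 5 in the DFI > 300 cohort and the hindlimb 4 and 2. An adjusted p under 0.05 was reached by 2 of 42860 probesets (0.00467%), 1 of TMOD2, a capping protein of actin filaments, and 1 with no gene name. The TMOD2 difference was 0.08 within the DFI < 100 and 9.70 within the DFI > 300 cohort (limma interaction adjusted p 8.41e-05). Its values were -6.76 and -7.11 in the 2 hindlimb dogs of the DFI > 300 cohort and between 1.79 and 3.74 in the other 13 dogs, all far below the reporter level. The unnamed probeset stood at -5.41 and -7.70 in the same hindlimb dogs (limma interaction adjusted p 0.00728). Both probesets were therefore called on values far below the reporter level in 2 tumors.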

How the data were processed

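Tumor RNA of 15 dogs was hybridised to Affymetrix Canine 2.0 arrays, each dog once. The authors obtained probeset values by PLIER through Affymetrix Expression Console (no version given), and the deposited values are intensity signals on the linear scale. The authors hybridised the arrays in 2 batches. Which array was in which batch, and how probes were normalized before PLIER, is not given in the sources used here. Limbs were therefore not compared by batch. RMA values were not analysed here. Arrays have no read depth, and their number limits the precision.

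Of 43035 probesets, 175 controls were left out and 42860 tested on log2 values with no offset. Of these 29254 have 1 gene symbol in the platform annotation (15115 genes), 439 several and 13167 none, and 14518 probesets and 6448 genes had a mean above the reporter level. Limma 3.58.1 in R 4.3.3 fitted cohort and limb, and p-values were adjusted by Benjamini-Hochberg. Each gene was represented by its brightest probeset over the 15 arrays. The limb of each dog came from the study's patient table. GEO's labels give the cohort only.

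The limb groups, the gene lists and the rule for named genes were chosen with earlier results of these data known. The rule took the measured limb-type factors, HOX genes above the reporter level or with an unadjusted p under 0.05 at any probeset, TBX2, TBX3, TBX4, TBX5, TBX15 and TBX18, the 10 genes in each direction with the smallest p above the reporter level, and, in each list described, up to 4 members ranked by p. TMOD2 was named for its interaction. Alternatives were no cohort term, the methods' t-test, a trended robust fit, an offset of 16, quantile normalization, probesets above the reporter level, array weights, the covariates sex, segment, age and 3 prime to 5 prime ratio, subsets of dogs, each dog left out, and averaging a gene's probesets. The fit was tested on simulated data. No sequence or coordinate is given, since no genome or sequence table was used here.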

Additional observations from a re-analysis of the deposited data

Results flagged for a closer look

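Of 176 groups of tumors checked (88 named genes in each limb), 19 held a tumor that stood further from its neighbor than Dixon's 95% criterion allows, and chance alone gives about 1 in 20 such groups. The distances were not tested further. In hindlimb tumors, dog 173175 stood apart for TBX2 (7.84, nearest other 4.99), TBX4 (6.27, nearest 4.62), LAMTOR1 (9.58, nearest 10.36) and CD68 (8.23, nearest 10.28). Dog 180119 stood apart for PDGFRB (9.25, nearest 7.62) and for TP63 (-9.03, nearest -0.06, below the reporter level). Dog 180223 stood apart for SPP1 (11.47, nearest 12.67) and ATP5F1C (11.20, nearest 11.85), and dog 204714 for CD74 (8.85, nearest 10.64) and BMP5 (6.50, nearest 4.22). GIN1 was 7.29 in dog 223986 (nearest 6.79), and HOXC12 was 7.86 in dog 153599 (nearest 7.39).

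In forelimb tumors, PITX1 was -7.69 in dog 193231 (nearest 3.15), TBX5 was 1.40 in dog 208911 (nearest 2.92), and MMP24 was -6.38 in dog 212759 (nearest -0.34), all below the reporter level. FBN2 was 2.50 in dog 190030 (nearest 7.77), and IGF2R was 10.14 in dog 188084 (nearest 10.97). Dog 208756 stood apart for TBX15 (5.96, nearest 4.71) and SMAD4 (11.43, nearest 10.16).

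The limb difference itself differed between the cohorts by the interaction test for 2 probesets. It was 9.70 within the DFI > 300 cohort for TMOD2 against 0.08 within the DFI < 100 cohort, and 8.62 against -0.53 for the unnamed probeset, in both cases through values below the reporter level in dogs 180119 and 180223.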

How the results depend on the processing

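The count of 0 probesets called between the limbs stayed at 0 in 28 of 33 alternative settings, and with each dog left out it was 0 throughout, with smallest adjusted p between 0.603 and 0.996. It was 1 without giant cell tumors, 1 in osteoblastic tumors only, 1 in the upper segment only, 2 in the DFI < 100 dogs and 10 in the DFI > 300 dogs, 0 of these above the reporter level. The 214 probesets past the fold criteria became 129 with the methods' t-test, 37 with the offset of 16, 28 with only probesets above the reporter level and 541 in the DFI > 300 dogs, and 170 to 284 with a dog left out. The 2 interaction probesets became 0 with the offset of 16, and 2 to 77 with a dog left out, 77 without dog 180119 and 76 without dog 180223, which leaves 1 hindlimb dog in that cohort, assumed to vary like the others. The segment count was 0 to 1 with a dog left out, 1 without dog 188084. The exact p of HOXC10, with no adjustment for the number of genes, was 0.0129 with the offset of 16 and 0.0104 with labels exchanged over all 15 dogs. The other 3 limb-type factors stayed above 0.05.

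None of the 88 named genes reached an adjusted p under 0.05 in any setting, and 76 kept their direction throughout. The direction turned for 12. HOXA5 became 0.10 with no cohort term and with the methods' t-test, 0.0048 without giant cell tumors, 0.0612 in osteoblastic tumors, 0.0523 in DFI > 300 dogs, 0.36 in the upper segment, and -0.28 to 0.21 with a dog left out. HOXB7 became -0.14 without giant cell tumors, -0.45 in DFI > 300 dogs and -0.0313 to 0.66 with a dog left out. HOXC12 became 0.0587 in DFI < 100 dogs and in left limbs and 0.0239 in the upper segment. TBX4 became 0.0829 with array weights and ran from -0.29 to 0.16 with a dog left out. TBX18 became 0.40 with the mean of all probesets. In DFI > 300 dogs TBX18 became 0.0876, TBX2 0.0209, RPRD1A -0.66, BGLAP 0.48, MMP24 0.55, FZD10 -0.0364, NDUFB5 -0.0638 and CSPG4 0.0303. The causes were not tested.

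Of 543 list medians, 5 moved by more than the spread between dogs, all within 1 cohort or in left limbs, where every hindlimb dog is of the DFI < 100 cohort. No paired analysis was possible because each dog gave 1 tumor and the replicate numbers only name the dogs. The medians of the IGF, HOX, osteoblast, cartilage, limb patterning, WNT, TGF-beta and BMP, oxidative phosphorylation and smooth muscle lists turned or moved by over 1.5 times in 14 to 30 settings each. The hindlimb has 6 dogs. In the DFI > 300 cohort it has 2, both spayed females with a right-limb tumor.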
